A study of Mus musculus with 12 samples.

Results

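Disallowed genes are genes that nearly all tissues use and that mature beta cells keep low, because their products would uncouple insulin release from blood glucose. Here 10 of them were followed, taken as a named list without a threshold on these data: Hk1, Hk2, Ldha, Slc16a1, Pdgfra, Acot7, Rest, Igfbp4, Smad3 and Oat. They are 10 of 21603 protein-coding genes on the autosomes and X in GENCODE vM39 (mm39). With 10 kb added on each side, their loci held 48 of 84472 autosomal hypomethylated regions (HMRs). An HMR is a run of CpGs with little methylation, and regions here are the union of the HMRs of 4 read pools.

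Low-affinity control of glucose entry into glycolysis by glucokinase is central to glucose sensing in the beta cell. Hk1 and Hk2 encode high-affinity hexokinases that would phosphorylate glucose even when it is scarce. Ldha makes lactate from pyruvate and Slc16a1 encodes the lactate and pyruvate carrier MCT1, so both would divert carbon away from the mitochondria or let circulating pyruvate trigger insulin release. Pdgfra is a receptor for platelet-derived growth factor, Igfbp4 binds insulin-like growth factors, and Smad3 carries TGF-beta signals to the nucleus. Rest represses neuronal genes that beta cells share with neurons, Acot7 hydrolyses acyl-CoA, and Oat is a mitochondrial ornithine aminotransferase. DNA methylation at promoters and intragenic enhancers has been linked to their low use, and the question asked was whether either kind of region gained methylation as beta cells matured.

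All mice carried Myt1cCre, Ngn3nCre, Rosa26eYFP and InsApple, in which the eYFP label needs both parts of a split Cre, one driven with Myt1 and the other with Ngn3 (Neurog3), and the Apple protein marks insulin-expressing cells. Cells sorted as eYFP+ descend from progenitors in which both parts met (labelled M+N+), and eYFP- cells (labelled M-N+) can include any cell in which recombination failed. Tagmentation-based whole genome bisulfite sequencing was done at postnatal day 2 (P2, 2 libraries per subtype) and at 2 months (P60, 4 libraries per subtype), 12 libraries in all, each combining several sorts of pooled mice. The titles name sorted beta cells while the cell type label reads all islet cells. Reads per CpG were available as 1 pool per stage and subtype, without replicates, and single libraries only as HMR positions. A pooled level cannot tell partial methylation in all cells from a mix of methylated and unmethylated cells.

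The pools held on average 25 and 25.1 reads per CpG at P2 and 45.6 and 45.4 at P60 (eYFP- and eYFP+ in that order, as for all pairs of values that follow). Single libraries had 57122 to 60968 HMRs at P2 and 38064 to 49975 at P60. The mean share of a region's CpGs that lay inside library HMRs was 60.6% to 66.7% at P2 and 38.9% to 48.8% at P60, over all regions. This shift touches every comparison of libraries below. At 253 X-linked regions that separate the sexes at P60, the P2 eYFP- library labelled female had an HMR at 91.7% and the one labelled male at 13.4%, opposite to the P60 libraries and to the P2 eYFP+ libraries, so these 2 libraries go against their sex labels. Pooled values cannot be given without them, and library counts without each are given with the other alternatives. Promoters of the beta-cell genes Pdx1, Nkx6-1 and Mafa were at 8.45% methylation or less in each pool, and that of Ins1 fell from 25.4% and 31.6% to 8.29% and 7.69%. The remaining beta-cell promoters looked at were not called changed. Ins2 was at 12.8% and 22.5%, then 8.58% and 8.15%, and Slc2a2 at 28.6% and 28.1%, then 20.5% and 21.5%. Iapp was at 26.2% and 20.6%, then 19.1% and 16.9%, and Ucn3 at 37.1% and 42.8%, then 40.1% and 40.8%. Of 20 promoters of genes that mark other pancreatic, endothelial, mesenchymal or immune cells, 3 gained methylation (Cpa1, Krt19 and Cd68), 0 lost it, and 6 were at 5% or less in every pool. That of Krt19, a duct gene, rose from 35.1% and 31.9% to 62.8% and 58.5%. Their part in the results was not tested.

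The regions that carry the results are shown first. 3 short regions in intron 1 of Smad3 are the ones that rose most in methylation among those under 300 bp, and each is printed 5′ to 3′ in the direction of Smad3 transcription (minus strand, mm39) with its CpGs in capitals and 1 base added to complete the last CpG. They are region 10 at chr9:63656633-63656828, region 7 at chr9:63638095-63638262 and region 12 at chr9:63662944-63663206.
Smad3 region 10: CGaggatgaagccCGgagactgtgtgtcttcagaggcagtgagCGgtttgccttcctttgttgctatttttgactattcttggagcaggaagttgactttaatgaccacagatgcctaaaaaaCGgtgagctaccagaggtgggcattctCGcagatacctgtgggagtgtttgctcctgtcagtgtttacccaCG
Smad3 region 7: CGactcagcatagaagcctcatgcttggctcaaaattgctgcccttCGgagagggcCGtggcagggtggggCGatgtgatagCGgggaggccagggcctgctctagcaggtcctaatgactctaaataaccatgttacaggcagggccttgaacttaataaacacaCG
Smad3 region 12: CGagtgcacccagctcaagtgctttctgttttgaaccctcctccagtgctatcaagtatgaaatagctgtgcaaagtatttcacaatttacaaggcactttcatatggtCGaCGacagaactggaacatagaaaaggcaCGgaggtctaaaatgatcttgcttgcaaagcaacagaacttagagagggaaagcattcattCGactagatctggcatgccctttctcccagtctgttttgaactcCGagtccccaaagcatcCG

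For contrast, the central 300 bases of Smad3 region 11 (chr9:63657708-63658007, same strand and capitals) lie less than 1 kb from region 10 and stayed almost free of methylation.
Smad3 region 11: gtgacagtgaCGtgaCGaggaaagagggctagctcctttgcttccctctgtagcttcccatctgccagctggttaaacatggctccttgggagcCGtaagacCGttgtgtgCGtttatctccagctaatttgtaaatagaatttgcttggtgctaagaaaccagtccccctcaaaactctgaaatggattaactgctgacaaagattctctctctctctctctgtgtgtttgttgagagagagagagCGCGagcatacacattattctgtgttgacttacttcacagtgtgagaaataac

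An intronic region from each of Hk2 (chr6:82730737-82731028, minus strand) and Igfbp4 (chr11:98936355-98936574, plus strand) is shown because it gained methylation outside Smad3.
Hk2 region 1: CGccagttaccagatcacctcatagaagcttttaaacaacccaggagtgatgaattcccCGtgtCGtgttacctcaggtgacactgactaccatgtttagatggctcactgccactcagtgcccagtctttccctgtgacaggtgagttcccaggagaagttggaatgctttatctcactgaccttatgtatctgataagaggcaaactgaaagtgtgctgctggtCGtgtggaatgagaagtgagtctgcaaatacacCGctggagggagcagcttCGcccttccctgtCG
Igfbp4 region 3: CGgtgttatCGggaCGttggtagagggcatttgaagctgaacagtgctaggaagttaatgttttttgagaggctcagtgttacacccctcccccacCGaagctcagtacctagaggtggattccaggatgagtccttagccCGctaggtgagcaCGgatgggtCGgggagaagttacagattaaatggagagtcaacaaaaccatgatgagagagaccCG

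The promoters of Ldha (chr7:46495013-46495312) and Slc16a1 (chr3:104545561-104545860), from 250 bases upstream to 50 bases downstream of the canonical start on the plus strand, show the other kind of region, with 31 and 36 CpGs in 300 bases.
Ldha promoter: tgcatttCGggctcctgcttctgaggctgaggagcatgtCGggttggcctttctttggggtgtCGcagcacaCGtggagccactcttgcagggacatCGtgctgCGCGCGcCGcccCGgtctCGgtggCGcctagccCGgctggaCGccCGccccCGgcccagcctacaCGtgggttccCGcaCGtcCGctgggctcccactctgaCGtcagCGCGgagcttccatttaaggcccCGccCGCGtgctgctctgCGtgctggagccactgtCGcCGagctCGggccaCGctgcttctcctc
Slc16a1 promoter: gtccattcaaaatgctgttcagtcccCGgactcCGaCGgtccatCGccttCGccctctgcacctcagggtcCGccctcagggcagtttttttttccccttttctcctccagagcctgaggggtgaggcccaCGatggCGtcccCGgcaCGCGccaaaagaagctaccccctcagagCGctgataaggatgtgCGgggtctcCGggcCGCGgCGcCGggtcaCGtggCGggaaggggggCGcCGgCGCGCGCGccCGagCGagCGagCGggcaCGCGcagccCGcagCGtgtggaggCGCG

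The promoters of the 10 genes were unmethylated at both ages and none was called changed. Over the window from 1 kb upstream to 500 bp downstream of the Ensembl canonical start, levels (methylated reads as a share of all reads) lay below 10% in all 4 pools for each gene. A region or window was called gained or lost where both subtypes differed between P2 and P60 by at least 10 percentage points in the same direction with adjusted p under 0.05 (Fisher's exact test on pooled reads, two-sided, Benjamini-Hochberg over all autosomal regions or promoters). By that rule 2.22% of 20263 autosomal promoters gained and 1.10% lost methylation, against 0 of 10 and 0 of 10 here. The tests compare pools of reads, not mice.

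The metabolic genes had small promoter differences. The Ldha window was at 5.29% (95% Wilson interval 4.38 to 6.38) and 5.88% (4.91 to 7.04) at P2 and at 6.79% (6.09 to 7.57) and 7.58% (6.82 to 8.41) at P60. The Slc16a1 window was at 6.40% and 7.55% at P2 and 8.2% and 8.17% at P60. Hk2 was at 3.02% and 2.54%, then 3.59% and 2.82%, and Hk1 at 7.49% and 6.70%, then 6.19% and 8.79%. Intervals cover counting error only. In these 4 genes the change was at most 2.09 points in either subtype, and it went in opposite directions between the subtypes in Hk1. Levels weigh CpGs by their reads, and depth was uneven. The 48 regions held 24.3 and 23.1 reads per CpG at P2 but 58.2 and 54.9 at P60. Means that weigh CpGs equally were not taken, so the direction of such small changes is uncertain.

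The signalling genes had the largest promoter differences, though they stayed small. Pdgfra rose from 2.82% and 3.25% to 9.23% and 8.14% (Fisher's exact test, adjusted p = 1.1e-10 and 6.34e-07). Igfbp4 rose from 2.27% and 2.70% to 6.82% and 6.97% (Fisher's exact test, adjusted p = 7.31e-15 and 1.93e-12). Smad3 rose from 4.89% and 4.08% to 9.06% and 8.62% (Fisher's exact test, adjusted p = 5.18e-09 and 1.16e-11). These 3 passed Fisher's test in both subtypes but not the 10 point minimum. When a ratio above 1.8 in both subtypes replaced that minimum, a rule added after the data were seen, these 3 of 10 promoters were gained, beside 1.53% of all autosomal promoters. The remaining promoters were Rest (6.12% and 7.53%, then 9.26% and 9.0%), Oat (7.19% and 6.44%, then 7.53% and 8.32%) and Acot7 (8.53% and 8.51%, then 7.69% and 8.43%), and none of the 3 passed in both subtypes. The median of the mean stage difference over the 10 windows was 1.40 points, beside -0.24 over all autosomal promoters. In the narrower window of the printed promoters (250 bp upstream to 50 bp downstream), the rise was 1.74 points for Pdgfra, 0.775 for Igfbp4 and 0.0304 for Smad3.

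**Figure D1:**
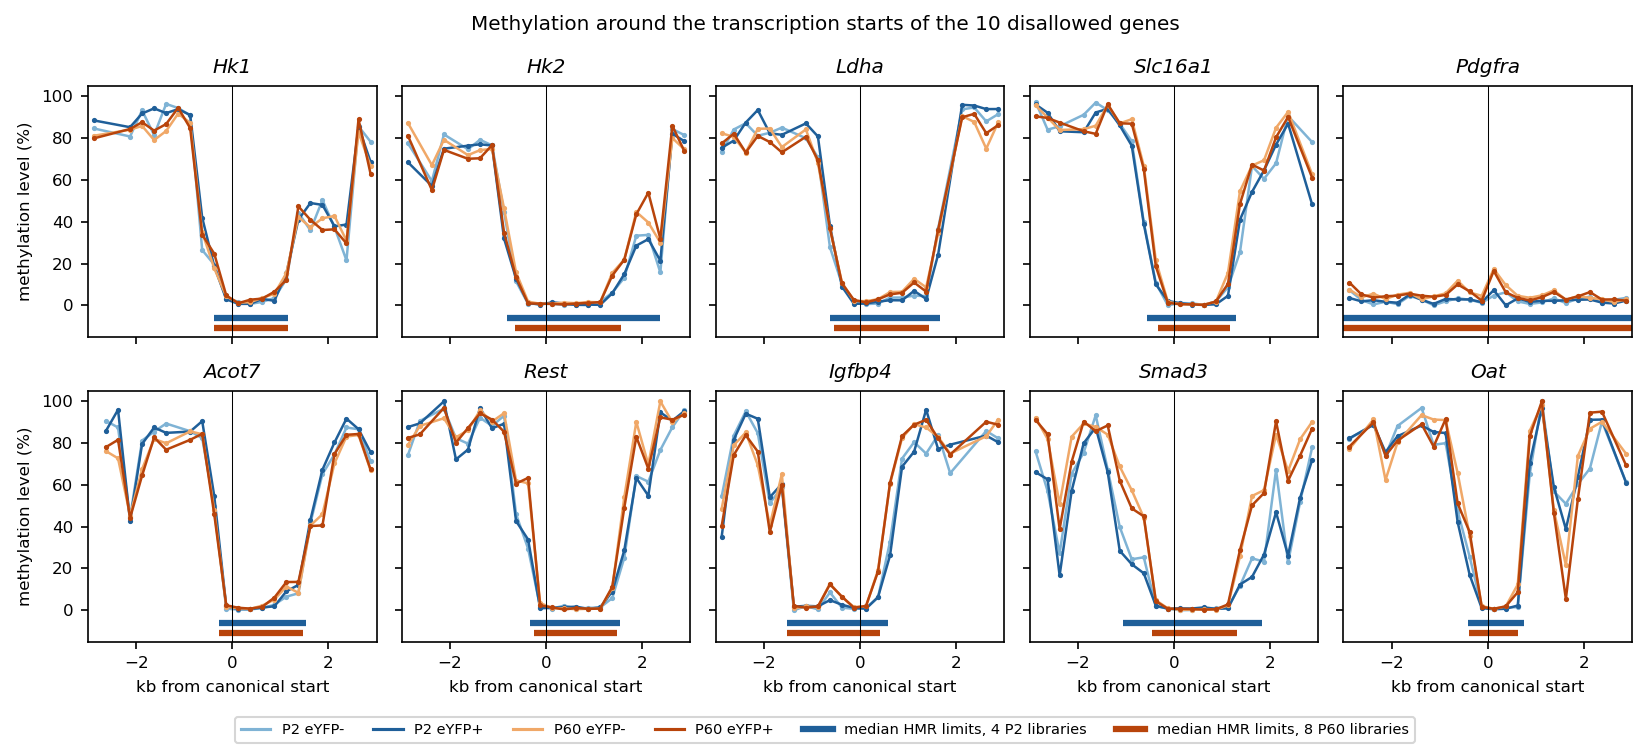
Methylation level (%, 250 bp bins with at least 1 CpG) from 3 kb upstream to 3 kb downstream of the canonical start (vertical line) of each gene, in the 4 pools. Bars under the curves span the median limits of the HMR in the 4 P2 and 8 P60 libraries, cut at the ends of the merged region and clipped at 3 kb for Pdgfra. The valley floor stays low in the 2 bins around the start in all genes but Pdgfra, which rises to 17.4% there, and the edges rise most at Smad3, Igfbp4, Rest and Slc16a1.

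At Smad3, Igfbp4, Rest, Slc16a1, Oat and Hk2 levels at the edges of the unmethylated valley were higher at P60 while its floor stayed low. In the 2 bins around the start, 9 genes stayed at 4.72% or less in every pool. Pdgfra was the exception: its first 250 bp downstream of the start, with 6 CpGs, went from 4.64% and 7.26% to 17.4% and 16.5%. At Smad3, the bins from 500 bp upstream to 1.25 kb downstream of the start stayed at 4.79% or less in every pool. The bin from 1 kb to 750 bp upstream rose from 24.4% and 22.0% to 57.4% and 48.8%, and the bin from 1.5 to 1.75 kb downstream from 24.8% and 16.0% to 54.7% and 50.2%. At Igfbp4 the bin from 500 to 750 bp downstream rose from 32.9% and 26.3% to 60.6% and 61.0%, while the upstream edge was at the same place at both ages. At Rest the bin from 500 to 250 bp upstream went from 29.5% and 33.9% to 60.8% and 63.4%, and the bin from 1.5 to 1.75 kb downstream from 25.2% and 28.7% to 54.1% and 49.1%. At Slc16a1 the bin from 750 to 500 bp upstream went from 39.7% and 39.0% to 66.7% and 65.2%. Differences at Oat and Hk2 were smaller. At Hk2 the bin from 1.25 to 1.5 kb downstream rose from 6.09% and 5.74% to 15.5% and 14.3%. Single bins were not tested.

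The HMRs of single libraries showed the same edges with replicates. Limits were cut at the ends of the merged region, so an HMR that reaches such an end may extend beyond it. The Smad3 promoter HMR spanned 2639 to 3054 bp in the 4 P2 libraries and 1645 to 1836 bp in the 8 P60 libraries. It reached 883 to 1131 bp upstream of the start at P2 and 430 to 446 bp at P60, and its downstream limit moved from between 1755 and 1922 bp to between 1198 and 1389 bp. The Hk2 HMR ended 2130 to 2439 bp downstream at P2 and 1417 to 1768 bp at P60. Upstream, the Igfbp4 HMR reached the region's end, at 1510 bp, in all 12 libraries, so a move of that limit could be hidden. It ended 552 to 576 bp downstream at P2 and 390 to 417 bp at P60. The Oat HMR ended 751 bp downstream in every P2 library and 636 bp downstream in every P60 library. The downstream limits of these 4 genes did not overlap between the ages. Nor did those of Rest, which were at the region's end (1535 bp) in every P2 library and at 1436 to 1482 bp at P60. Upstream, the limits of Rest (303 to 353 bp at P2, 185 to 254 bp at P60) and Slc16a1 (554 to 559 bp, then 322 to 499 bp) did not overlap either. How often limits separate over all promoters was not counted, and library HMR coverage fell over all regions.

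Over whole regions, the share of CpGs inside library HMRs was lower at P60 in 7 of 15 own promoter regions and higher in 0 (exact permutation test over the stage labels of the 12 libraries, two-sided, p = 0.00404, the smallest it can give, adjusted p = 0.0255 over all autosomal regions). The same call was made for 22.8% of all regions at protein-coding promoters. The 7 were Hk2 (98.2% ± 2.72 at P2, SD, n = 4, and 86.9% ± 2.33 at P60, n = 8), Slc16a1 (98.5% ± 1.43 and 91.0% ± 3.02), Rest (99.8% ± 0.255 and 95.5% ± 0.552), Igfbp4 (99.1% ± 1.21 and 89.0% ± 0.847), Smad3 region 13 (97.3% ± 3.06 and 80.1% ± 1.37), Oat (100% in each P2 library and 96.2% ± 1.21) and an alternative promoter of Pdgfra. The main promoter regions of Hk1 (96.3% ± 1.69 and 96.5% ± 0.720), Acot7 region 3 (99.2% ± 0.614 and 98.9% ± 0.747) and Pdgfra (99.8% ± 0.136 and 99.4% ± 0.377) held nearly all of their CpGs at both ages and were not called, nor was that of Ldha (98.6% ± 2.35 and 93.8% ± 1.45, permutation p = 0.0162, adjusted p = 0.0805). Acot7 region 4, at an alternative start in intron 1, was at 96.3% ± 3.02 and 90.7% ± 4.43 (permutation adjusted p = 0.278), with pooled levels of 13.2% and 12.2% and then 12.8% and 14.8%. DNA was combined per stage and sex before libraries were made, so P60 libraries of the same subtype and sex label may share a DNA pool. With such libraries averaged, 70 label assignments remain, the smallest p is 0.0286, and no region could be called.

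Across the 48 regions, 12 were called lower at P60 and 0 higher in libraries, beside 16.8% lower and 0.511% higher of all autosomal regions. When each library's shares were centred on its mean over all regions, 4 were called lower and 27 higher, since the mean share fell by 19.2 points between the ages. The 4 were Pdgfra regions 3 and 4, Igfbp4 region 3 and Smad3 region 9. Under that scaling any region whose share fell by less than this mean turns sign, and the 6 main promoter calls did. The narrowing of these promoters was thus less than the average loss of HMR coverage over all regions in P60 libraries. A mean over promoter regions alone was not taken. With the subtypes of one number averaged as a block, 15 label assignments remain and the smallest p is 0.133, so 0 regions could be called. All P2 libraries carry 1 prefix and the P60 libraries 2 others. The prefixes are taken here as runs, which the sample titles do not state, so stage and run cannot be told apart.

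**Figure D2:**
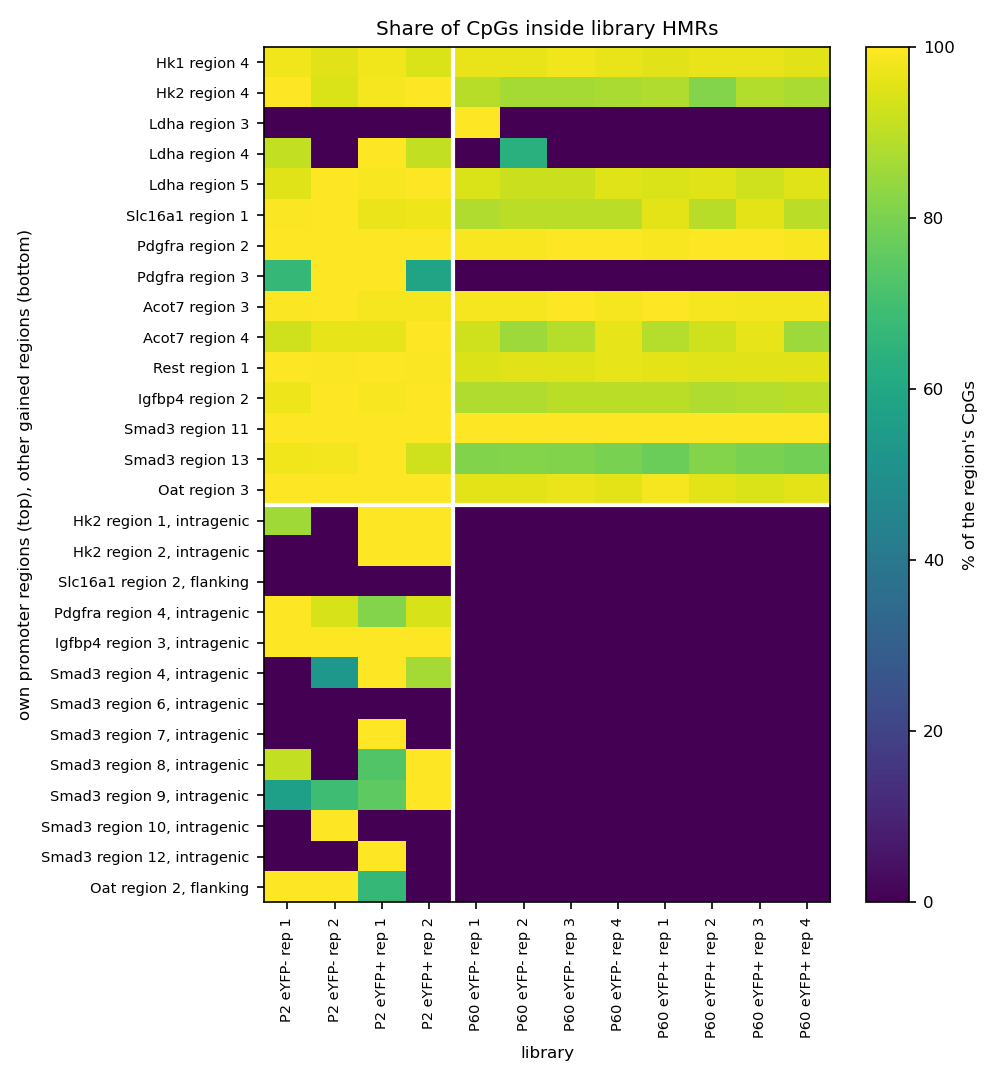
Share of each region's CpGs inside the HMRs of each of the 12 libraries (columns, P2 left of the white line), for the 15 own promoter regions (above the white line) and the 13 other gained regions (below). Main promoters keep between 77.6% and 100% in each library. The gained regions, picked for a higher level at P60, are at 0% in all 8 P60 libraries.

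Of 21 intragenic regions that overlap no promoter window, 11 gained and 0 lost methylation, and in libraries 3 had a lower share at P60 (16.8% of all intragenic regions did). Their median difference was +14.8 points, beside +5.25 points over all intragenic regions. Smad3 held 11 of the 21 and weighs on that median, which was not taken without it. The intragenic regions of Hk1 and Acot7 differed by between -4.80 and +4.56 points. The background of the same call was 30.9% of all autosomal intragenic regions, 6.58% of all promoter regions and 23.3% gained with 1.71% lost over all classes. Of the 11 gained, 7 lie in Smad3 and 4 of 10 in the other genes (2 in Hk2, 1 in Pdgfra and 1 in Igfbp4). Own promoter regions gave 1 gain in 15, flanking regions 2 in 10, and the promoters of the neighbours Gpr153 and Nkx1-2 0 in 2. In total 14 of 48 regions in 6 genes gained methylation and 0 lost it, and Hk1, Ldha, Acot7 and Rest had none. Regions enter because they are low in at least 1 pool, which favours a rise from P2 wherever the HMR was found at P2 alone: over the 33 regions of the P60 pools alone 0 were gained.

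**Figure D3:**
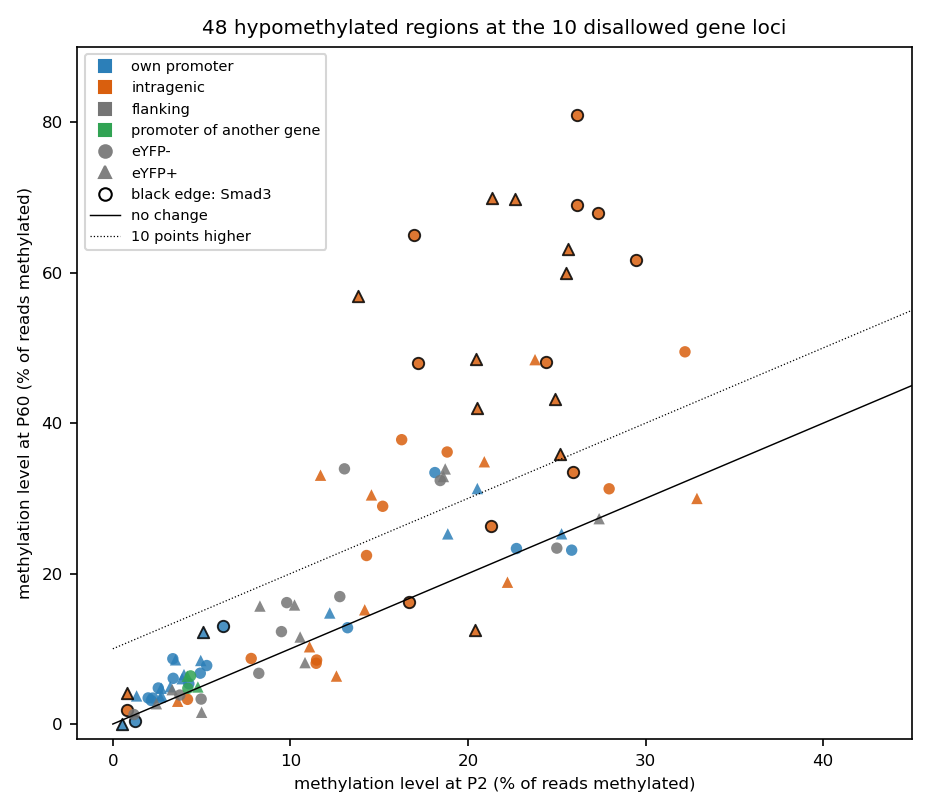
Methylation level at P60 against P2 (% of reads methylated) for the 48 regions, with circles for eYFP- and triangles for eYFP+ pools, colours for region classes and black edges for Smad3. Promoters cluster at the lower left, and Smad3 intragenic regions lie furthest above the dotted line, up to 80.9% at P60.

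Smad3 (chr9:63554049-63665476, minus strand) held the largest gains. Its 7 gained regions lie in intron 1 between 2.4 and 41.6 kb from the canonical start. Region 10 (8.7 kb, 6 CpGs) rose from 26.2% (20.2 to 33.2) and 22.6% (16.4 to 30.3) to 80.9% (76.3 to 84.9) and 69.8% (64.7 to 74.4), with adjusted p = 2.87e-31 and 7.01e-20 by Fisher's exact test. Region 7 (27.3 kb from the start, 6 CpGs) rose from 17.0% and 13.8% to 65.0% and 57.0%, and region 9 (12 kb, 16 CpGs) from 27.3% and 21.4% to 67.9% and 70.0%. The intervals of P2 and P60 pools did not overlap in these 3 regions.

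The others rose by less. Region 12, nearest to the start, rose from 26.1% and 25.7% to 69.0% and 63.2%, and region 4, the farthest, from 29.5% and 25.5% to 61.7% and 59.9%. Region 6 rose from 17.2% and 20.5% to 48% and 48.5%, and region 8 from 24.4% and 24.9% to 48.2% and 43.2%. In mean stage difference the order was region 10 (+51.0 points), region 7 (+45.6), region 9 (+44.6), region 12 (+40.2), region 4 (+33.3), region 6 (+29.4) and region 8 (+21.0). No order of neighbours in that list was tested. Of the 4 intragenic Smad3 regions not called, region 3 rose in both subtypes but by under 10 points in eYFP- (25.9% and 20.5%, then 33.6% and 42.1%). Region 5 was at 21.3% and 25.2% and then 26.4% and 35.9%, and region 1, in intron 7, at 16.7% and 20.4% and then 16.2% and 12.5%. Region 2 was below 5% in every pool.

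Region 11, the 319 bp region at an alternative Smad3 start inside intron 1, did not follow its neighbours. It was at 1.22% (0.477 to 3.10) and 0.513% (0.0906 to 2.85) at P2 and at 0.370% (0.101 to 1.34) and 0% (0 to 0.640) at P60, the last from 0 of 596 reads. All 10 of its CpGs were inside an HMR in 12 of 12 libraries. It lies between region 10 and region 12, both of which gained over 40 points. Its CpG density, 3.13 per 100 bases, is close to the 3.08 and 2.67 of these regions.

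Library HMRs gave fewer replicated calls at Smad3 than pooled levels did. In region 9 the shares were 56.2% and 68.8% in the P2 eYFP- libraries, 75.0% and 100% in the P2 eYFP+ libraries, and 0% in all 8 P60 libraries (permutation p = 0.00404, adjusted p = 0.0255). Regions 7, 10 and 12 had an HMR in 1 of 4 P2 libraries each and region 6 in none, so their P2 values rest on the pools. Over all 14 gained regions, 14 had no HMR in any P60 library, 4 had one in each P2 library, and 2 had none in any library. These regions were picked for a higher level at P60, which favours the absence of an HMR there. The same counts over all gained autosomal regions were not taken.

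**Figure D4:**
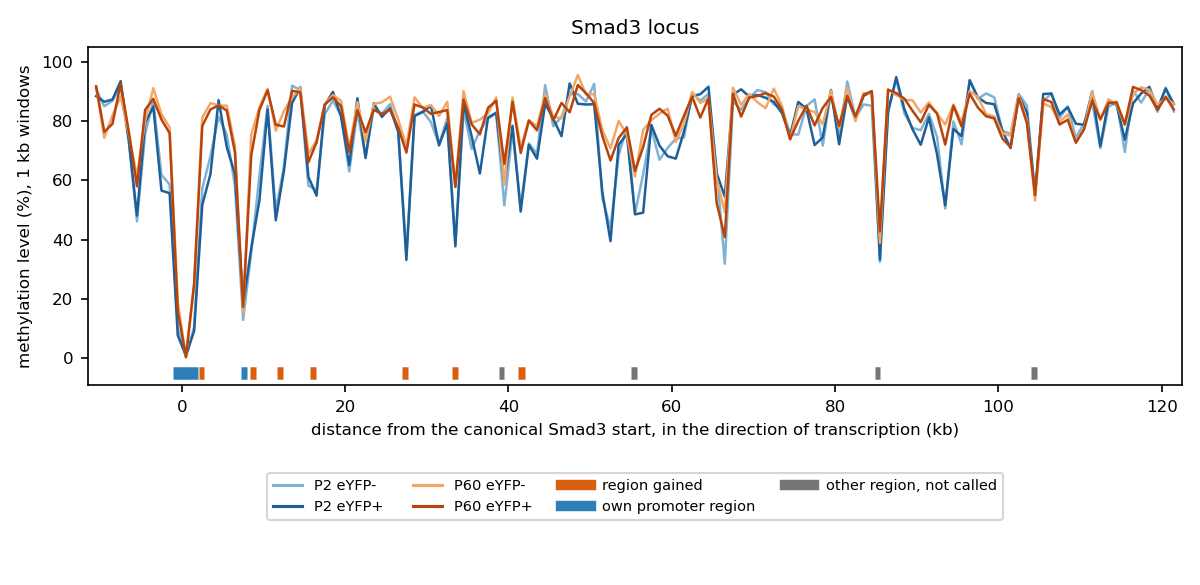
Methylation level (%) in 1 kb windows along Smad3 against distance from its canonical start in kb, for the 4 pools, with blocks marking the 13 regions (orange gained, blue own promoter, grey not called, widened to at least 0.7 kb). The P2 pools dip below the P60 pools at the gained regions within 42 kb of the start, while all 4 pools fall together at the start and near 7.6 kb.

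The gain at Smad3 was also seen without regard to HMRs. In 1 kb windows, 23 of 132 at its locus gained and 0 lost methylation, beside a background of 3.05% gained and 0.955% lost of 2280255 autosomal windows. Its gene body outside the regions rose from 79.2% and 78.9% to 83.7% and 82.6%. Of 28 single CpGs called gained at the 10 loci (adjusted p under 0.05 in both subtypes), 21 were at Smad3, of which 11 lay in gained regions, 8 outside all regions and 2 at the edge of the promoter region. The CpG with the largest mean rise, 66.0 points, was in intron 1 at chr9:63655692 and went from 8.70% and 26.3% to 87.1% and 80%. The background of single CpG calls was 0.228% gained and 0.0114% lost of 18370625 CpGs with at least 10 reads in every pool, against 28 gained and 1 lost of 10607 here.

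Pdgfra (chr5:75311994-75358876, plus strand) has the widest unmethylated valley of the list, 9182 bp around its start, which was at 2.56% and 2.72% at P2 and at 4.79% and 4.75% at P60. Its gains lay beyond that valley. Region 3, at an alternative start 8.5 kb into intron 1, was the only own promoter region gained, from 18.1% (14.7 to 22.2) and 20.5% (16.8 to 24.9) to 33.4% (30.1 to 36.9) and 31.3% (28.0 to 34.9). Its share inside library HMRs was 66.7% and 100% in P2 eYFP- libraries, 100% and 58.3% in P2 eYFP+ libraries and 0% in each P60 library. Region 4 in intron 16 rose from 18.8% and 20.9% to 36.2% and 34.9%, with library shares of 81.3% to 100% at P2 and 0% at P60. Both were called in pools and in libraries.

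Hk2 (chr6:82699740-82751469, minus strand) gained methylation at a pair of regions in intron 2. Region 1, printed above, rose from 16.3% (11.4 to 22.6) and 11.7% (7.70 to 17.4) to 37.8% (33.3 to 42.5) and 33.1% (28.6 to 37.9). Region 2 rose from 32.2% and 23.8% to 49.5% and 48.4%. In libraries region 1 was present in 3 and region 2 in 2 of 4 at P2 and neither in any at P60 (permutation p = 0.0364 and 0.182, adjusted p = 0.128 and 0.418), so the replicated measure did not call them. Region 3 in intron 1, with 4 CpGs, was at 11.5% and 22.2% at P2 and 8.51% and 18.9% at P60. The other hexokinase, Hk1 (chr10:62104621-62215687, minus strand), gained at none of its 3 intragenic regions, which were at 12.6% or less in every pool. The region of its locus with the largest absolute mean stage difference was the one 79.0 kb downstream of the start, beyond the gene's end, at 9.79% and 10.2% and then 16.1% and 15.8%.

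Igfbp4 (chr11:98932064-98945218, plus strand) combined a narrower promoter with loss of an intronic HMR. Region 3 in intron 1, 4.4 kb from the start, rose from 15.2% (10.9 to 20.8) and 14.6% (10.4 to 20) to 28.9% (25.4 to 32.8) and 30.5% (26.2 to 35.0). All 8 of its CpGs lay in an HMR in each of the 4 P2 libraries and none did in any P60 library. The 1 single CpG called at this gene was in the coding part of exon 1 at chr11:98932490, 426 bp from the start, and rose from 23.8% and 16.0% to 68.7% and 72.1%.

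Ldha (chr7:46490899-46505061, plus strand) and Slc16a1 (chr3:104545811-104565780, plus strand) had no intragenic region besides those at promoters. Ldha region 4, an own promoter region at an alternative start 3.6 kb upstream, was the one with the largest mean stage difference, +3.5 points, at 22.7% and 18.9% and then 23.3% and 25.3%. In libraries it had an HMR in 3 of 4 at P2 but in only 1 at P60. The replicated measure did not call it (permutation p = 0.0364, adjusted p = 0.128). Ldha region 3, at another alternative start, was at 25.8% and 25.3% and then 23.1% and 25.3%. Slc16a1 had 1 gain, a flanking region with 6 CpGs downstream of the gene that went from 18.4% and 18.7% to 32.4% and 33.9%, with no HMR in any library. The lactate dehydrogenase gene thus had 0 gains in 5 regions and its carrier 1 in 2.

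Oat (chr7:132159153-132191517, minus strand) had single CpGs called in both directions. The loss was 1 of 10607 CpGs tested at the 10 loci, beside a background of 0.0114% lost. At Oat 5 CpGs in introns 4, 5 and 6 gained methylation, all outside HMRs, and the one in intron 4 (chr7:132167795) rose from 26.9% and 12.9% to 85.7% and 77.1%. The only CpG lost at any of the 10 loci was in Oat intron 1 at chr7:132176630, 1497 bp from the start, and fell from 67.6% and 72.4% to 20.3% and 13.7% (adjusted p = 0.00345 and 3.92e-04, Fisher's exact test). The neighbouring 250 bp bin, with 2 CpGs, went from 50.9% and 38.9% to 21.6% and 5.43%. A flanking region downstream of Oat gained, from 13.0% and 18.6% to 33.9% and 32.9%, and was present in 3 of 4 P2 libraries and none at P60.

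Acot7 (chr4:152262136-152356313, plus strand) and Rest (chr5:77408131-77434284, plus strand) had no region gained. The Acot7 region with the largest difference, region 6 in intron 7, was at 14.3% and 14.2% at P2 and 22.4% and 15.2% at P60, and passed in neither subtype (Fisher's exact test, adjusted p = 0.0795 and 0.941). Rest had a single region, its promoter, with 226 CpGs at 2.25% and 2.67% and then 3.45% and 3.55%. One CpG at its upstream edge, chr5:77412979, rose from 35.0% and 34.8% to 83.9% and 81.0%.

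Gene bodies outside the regions were methylated at 71.3% to 83.7% and did not share a direction. The pools as a whole were also lower at P60, at 69.3% and 70.1% methylated at P2 and 67.9% and 67.6% at P60. The gene bodies were lower at P60 in both subtypes in Hk1 (79.5% and 80.7%, then 75.3% and 75.3%), Hk2 (80.5% and 81.0%, then 76.3% and 75.7%), Pdgfra, Acot7, Ldha and Slc16a1. They were higher in both subtypes in Smad3, Oat (78.6% and 78.1%, then 81.6% and 80.8%) and Igfbp4 (80.3% and 80.9%, then 82.7% and 82.7%), and Rest was mixed. In 1 kb windows the 10 loci together had 37 gained (5.07%) and 8 lost (1.10%) of 730, beside 3.05% and 0.955% of all autosomal windows. Of the 37 gained, 23 were at Smad3, and the share lost was near the background. The lost ones were at Acot7 (3 of 115), Hk1 (2 of 132), Hk2 (2 of 72) and Ldha (1 of 36).

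The subtypes differed little at these genes. Between eYFP- and eYFP+ pools 0 of 48 regions were called at P2 and 1 at P60, by adjusted p under 0.05 and at least 10 points, beside 1.23% and 0.690% of all regions. The 1 was Smad3 region 10, which was 11.2 points lower in eYFP+ at P60 (80.9% against 69.8%, Fisher's exact test, adjusted p = 0.0472) and 3.54 points lower at P2 (adjusted p = 0.855). Whether the difference itself changed between the ages was not tested in pools, and it carries no replicate check because no P60 library had an HMR there. In the 12 libraries the permutation test with labels exchanged within stage called 0 of 48 regions, with 1 at an unadjusted p under 0.05, and 0% of all regions. Exchange within replicate number also called 0. The 1 was Ldha region 2, a flanking region 7.0 kb upstream: its share in P60 libraries was 70%, 85%, 70% and 90% in eYFP- and 0%, 35%, 45% and 40% in eYFP+, without overlap, with permutation p = 0.0190 and adjusted p = 1. Its pooled level at P60 was 23.4% (21.1 to 25.9) and 27.3% (24.7 to 30.1).

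Compared by counts with lists of related genes, the 10 loci did not have more gains at promoters. Of 18 other genes reported low in beta cells, 1 promoter window gained and 0 lost. It was that of Mgst1, a glutathione transferase gene, at 50.3% and 48.3% and then 60.7% and 59.3%. Of 24 autosomal genes of glucose uptake, glycolysis and lactate handling, 0 promoter windows gained and 0 lost. Over all regions, 14 of 48 gained here, 29 of 96 in the genes low in beta cells and 17 of 109 in the glycolysis list, where 1 was lost. Among intragenic regions the counts were 11 of 21, 16 of 54 and 5 of 39, beside the background of 30.9%. Of the 11, 7 were at Smad3.

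In sequence, the gained regions were of ordinary length and composition. Over all intragenic regions, the class of most of them, the medians were 432 bp, 8 CpGs and 48.1% GC. The 14 had a median length of 443 bp, 8.5 CpGs and 50.4% GC, beside 527 bp, 9 CpGs and 49.2% over all regions, while the 15 own promoter regions had medians of 1850 bp, 117 CpGs and 58.5% GC. Short motifs of 4 kinds were looked for on both strands in the central 200 bp of each region: TGANTCA (AP-1), TGTTTAC (forkhead), TAATTA (homeodomain) and CAGATG (a bHLH E-box). They were found in 1, 1, 0 and 3 of the 14 gained regions, beside 6.56%, 5.64%, 7.67% and 18.2% of all regions. Smad3 region 10 holds TGTTTAC and CAGATG and Smad3 region 9 holds TGANTCA. A match says only that these letters are in the window.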

How the data were processed

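The submitters trimmed reads with Trim Galore 0.6.6 and cutadapt 1.16, mapped them to mm39 with abismal and called HMRs with MethPipe. The authors deposited read counts per CpG (methylated and unmethylated) as 1 pool per stage and subtype, B1 being eYFP- and B2 eYFP+, and HMR positions per pool and library. Their 8 DMR files hold the authors' own comparisons of the pools and were not used. Levels are methylated over all reads. Overlapping pooled HMRs were merged. Regions or promoters with at least 20 reads, and CpGs with at least 10 reads, in every pool were tested in Python (numpy, scipy 1.17.1) by Fisher's exact test, libraries by exact permutation, and p-values were adjusted by Benjamini-Hochberg over all autosomal features.

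B1 and B2 were checked against library HMRs: regions found in B1 alone at P2 had an HMR in 23.9% and 27.1% in eYFP- libraries and 4.53% and 5.90% in eYFP+ libraries. Same-numbered P60 libraries deviated together (correlations 0.143 to 0.303), P2 libraries did not (0.0110). Differently numbered P60 libraries of the same sex label also correlated (0.103 to 0.227 in 3 of 4 pairs), so number and sex cannot be told apart. On simulated reads with counting error alone, the region test recovered the changes put in, which were larger than the minimum for a call. Such reads cannot show how differences between libraries or runs affect the test. Members and lists were chosen with earlier results of these data known. Every member is described with its own promoter regions, every called intragenic region, and otherwise the region with the largest mean difference. Flanking gains, single CpGs, 1 kb windows, Smad3 region 11, Hk2 region 3 and Ldha region 2 were added after their values were seen. Replicates are separate libraries of pooled mice and may share DNA within a stage and sex, so p-values may measure technical spread. Alternatives were other thresholds, read minimums, region sets, centring, left-out libraries and a replicate block.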

Additional observations from a re-analysis of the deposited data

Results flagged for a closer look

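In groups of 4 P60 libraries, 1 library stood apart from the other 3 in 7 of 30 groups of library shares, each time because the other 3 were equal, and chance flags about 1 in 20 groups. The share was 68.4% in eYFP+ replicate 1 at Hk1 region 1 (63.2% in the others), 97.8% in eYFP- replicate 3 at Hk1 region 4 (96.6%), 88.0% in eYFP- replicate 1 at Slc16a1 region 1 (89.8%), 100% in eYFP- replicate 3 at Acot7 region 3 (98.7%) and 97.3% in eYFP- replicate 3 at Oat region 3 (95.9%). In these 5 the gap was a few CpGs at an edge. At the upstream Ldha regions the gap was a whole HMR: Ldha region 3 was at 100% in eYFP- replicate 1 and Ldha region 4 at 63.6% in eYFP- replicate 2, with the other 3 at 0%. At P60 both calls come from single libraries, and the pooled levels there were between 23.1% and 25.3%. At P2 no library had an HMR at Ldha region 3. Ldha region 4 had one in 3 of 4 P2 libraries, with shares of 90.9% to 100%.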

How the results depend on the processing

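The count of 14 gained regions stayed between 10 and 18 with a minimum of 5 points, a ratio above 1.8, regions of the P2 pools alone, CpGs with at least 10 reads, centring on the median or gene bodies without flanks, and 0 were lost in each of these. The members differed: the 5 point rule added 4 regions (the promoters Igfbp4 region 2 and Smad3 region 13, Smad3 region 3 and Hk1 region 1), and the ratio added the same 2 promoters and dropped 6 (Hk2 region 2, Slc16a1 region 2, Pdgfra regions 3 and 4, Smad3 region 8 and Oat region 2). It was 7 with a minimum of 20 points and 0 over regions of the P60 pools alone, and 1 kb windows gave 37 gained and 8 lost. The library count of 12 lower shares was 0 to 13 when each library was left out. Without any 1 of the P2 libraries, the 2 with doubtful sex labels included, the remaining label assignments leave a smallest p of 0.0121, too large to pass the adjustment, and the count was 0. It was also 0 by any overlap instead of share, 0 in eYFP- libraries alone, 0 in eYFP+ libraries alone and 0 with the replicate block, the last 3 in designs that cannot reach the threshold. Shares centred on the library mean gave 4 lower and 27 higher, and turned the stage differences of Hk2 region 4 to +7.78, Slc16a1 region 1 to +11.7, Rest region 1 to +14.9, Igfbp4 region 2 to +9.01, Smad3 region 13 to +1.95, Oat region 3 to +15.4 and Oat region 4 to +15.6. Between subtypes, regions of the P60 pools alone gave 0 calls in place of 1, since Smad3 region 10 is not among them, and the replicate block changed no call (0). Promoter windows gave 0 gained and 0 lost in the narrower window, with CpGs of at least 10 reads and with a minimum of 5 points, but 3 gained (Pdgfra, Igfbp4 and Smad3) with a ratio above 1.8. The last 2 rules were added after the data were seen, as was averaging libraries of one stage, subtype and sex, which gave 0 lower shares. Single CpG counts were 25 to 28 gained and 1 lost. Pooled reads give counting error only, and depth limits single CpGs most, where P2 pools hold about 25 reads.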
